A study of Mus musculus with 6 samples.

Results

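The genes described here mark the connective tissue and vessel-wall cells that come along when pancreatic islets, small clusters of endocrine cells, are isolated. There are 10 of them among the 18437 genes of the deposited table, chosen by symbol as known markers of fibroblasts, stellate cells and mural cells, with collagens left aside, and all 10 were found. Dcn, Lum, Fn1, Fbn1 and Thy1 were grouped as fibroblast genes, and Pdgfrb, Cspg4, Rgs5, Acta2 and Tagln as mural genes. The split is a convenience, since fibroblasts also use Pdgfrb. RNA sequencing was done on islets of male mice aged 30 weeks, with 3 libraries from Sec16b-/- mice (knockout) and 3 from Sec16b+/+ mice (wild type). Sec16b encodes a protein of the sites where cargo leaves the endoplasmic reticulum. The labels do not say how the allele was made, in which cells it acts, or whether each library came from a separate mouse, so the p-values reflect only how far these libraries vary, which may be technical.

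Islets are penetrated by a dense capillary bed, and pericytes wrap these capillaries while stellate cells and fibroblasts lie around them and in the exocrine tissue. Pericytes are kept on vessels by PDGF-B, which endothelial cells release and the receptor encoded by Pdgfrb binds. Stellate cells are quiescent in healthy pancreas, and on activation they make smooth muscle actin and fibrous matrix. Smooth muscle cells of arterioles share the contractile genes Acta2 and Tagln with activated stellate cells.

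The promoters of mural genes are shown because these genes, grouped as one cell kind, differed in how widely they varied across the libraries. The upstream DNA of 4 of the 10 genes was in the RefSeq table (GRCm38.p6), and the 250 bases before the start are given for the 3 mural ones, 5′ to 3′ on the strand of the gene. Capitals mark 3 kinds of motif, each searched on both strands. One is the CArG box of serum response factor with at most 1 mismatch, the second is the MCAT element CATTCC of TEAD factors, and the third is the GC box GGGCGG.
The windows lie at chr19:34255374-34255623 on the minus strand for Acta2, chr1:169655251-169655500 on the plus strand for Rgs5 and chr9:56864854-56865103 on the plus strand for Cspg4.
Acta2: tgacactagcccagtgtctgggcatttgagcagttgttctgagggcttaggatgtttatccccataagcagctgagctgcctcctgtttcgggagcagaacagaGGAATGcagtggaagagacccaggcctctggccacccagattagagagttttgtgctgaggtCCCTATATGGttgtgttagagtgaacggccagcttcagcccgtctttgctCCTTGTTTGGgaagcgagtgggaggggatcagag
Rgs5: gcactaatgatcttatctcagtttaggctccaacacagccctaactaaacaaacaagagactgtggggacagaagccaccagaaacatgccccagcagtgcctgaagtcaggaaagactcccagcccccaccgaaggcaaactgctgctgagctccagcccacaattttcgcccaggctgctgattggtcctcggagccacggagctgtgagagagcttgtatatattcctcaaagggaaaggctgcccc
Cspg4: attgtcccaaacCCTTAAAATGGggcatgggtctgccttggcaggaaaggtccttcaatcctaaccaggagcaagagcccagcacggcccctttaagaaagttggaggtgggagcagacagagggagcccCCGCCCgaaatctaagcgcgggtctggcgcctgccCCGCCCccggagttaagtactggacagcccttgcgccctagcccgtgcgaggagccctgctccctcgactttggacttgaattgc
The Acta2 promoter held CArG boxes with 1 mismatch starting 84 and 34 bases before the start, and an MCAT element at 146 bases. Cspg4 held 2 GC boxes, at 120 and 85 bases, and 2 overlapping CArG boxes with 1 mismatch at 238 and 237 bases. Rgs5 held none of the 3 motifs in this window. None of the 3 held a perfect CArG box, which 1.48% of 32536 promoter windows of this length carry. With 1 mismatch allowed the share was 18.6%, for MCAT 12.6% and for the GC box 33%. A match describes the letters and is not a measured binding site.

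Total reads recovered from the table were 22071895 to 24887766 in knockout and 22566274 to 26806787 in wild type libraries. Sec16b itself stood at 553, 433 and 750 normalized reads in knockout replicates 1, 2 and 3, against 1655, 773 and 1786 in wild type replicates. All 3 knockout libraries were lower, with a log2 fold change of −1.22 (SE 0.35, limma adjusted p = 0.993; exact permutation p = 0.1). Normalized reads are read counts divided by a size factor per library, and values from 0.879 to 1.23 stood for 1 read. Islet identity was plain, with Ins1, an insulin gene, averaging 562768 ± 100154 in knockout and 615172 ± 126527 in wild type libraries (SD, n = 3 each). The libraries held other tissue in uneven amounts. The summed value of 20 acinar genes, enzymes of the exocrine pancreas, ran from 164395 to 4449320 in knockout and from 268126 to 1242260 in wild type libraries. The summed value of 9 lymphocyte genes ran from 7399 to 145462 in knockout and from 406 to 24827 in wild type libraries. In bulk RNA, fewer cells of a type and less RNA per cell cannot be told apart.

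As a whole, the stromal genes did not separate the genotypes. Among the 10 genes, 6 had a higher and 4 a lower mean log2 value in knockout libraries (higher and lower are counted on mean log2 values in every list below), and the median log2 fold change was 0.14, beside −0.0030 over all 16042 genes tested. Limma called 0 of the 10 at an adjusted p under 0.05, with 0 of 16042 genes called (0%). At an unadjusted p under 0.05 it found 0 of the 10, beside 3.08% of all genes (1.72% higher and 1.36% lower in knockout). In 3 of the alternative fits 1 of the 10 had an unadjusted p under 0.05: Thy1 with the lymphocyte level as covariate, Dcn without knockout replicate 3 and Cspg4 without wild type replicate 1. EdgeR, fitted by quasi-likelihood to the recovered reads, found 0 of the 10 at either level, beside 0% of all genes adjusted and 3.17% unadjusted. DESeq2 also found 0 of the 10, beside 0.081% adjusted and 3.59% unadjusted, and gave no adjusted p for 3 of them. Knockout and wild type values overlapped in each of the 10 genes, and groups that do not overlap were seen in 9.08% of all genes. All 10 passed the filter on low values.

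**Figure D1:**
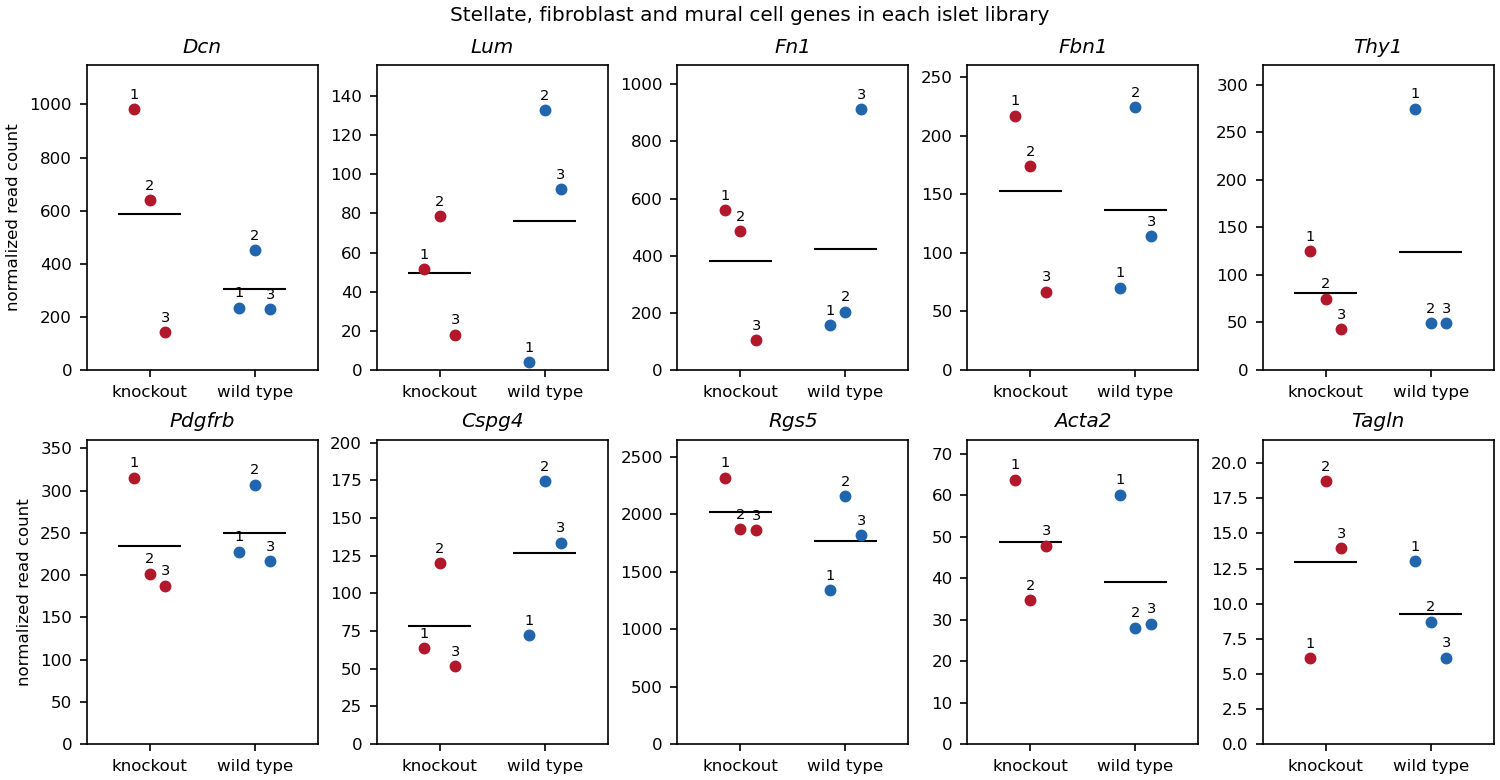
Normalized read count (y axis, linear from 0) of each gene in the 3 knockout (red, left) and 3 wild type (blue, right) libraries, with replicate numbers beside the points and the group mean as a bar. The groups overlap in every panel, with Lum at 4.01 in wild type replicate 1 and Fn1 at 912 in wild type replicate 3.

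**Figure D2:**
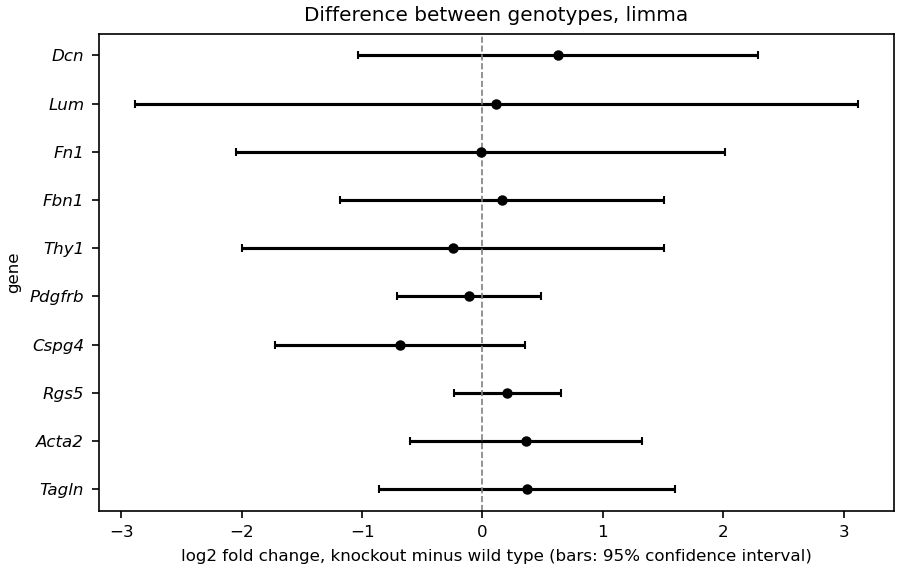
Log2 fold change of each gene, knockout minus wild type (x axis), with the 95% confidence interval of the limma fit. Every interval includes 0, and the narrowest belongs to Rgs5, from −0.24 to 0.65.

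Spread between the 6 libraries, over both genotypes, was wide for most of these genes. The SD of the log2 value over the 6 libraries was above that of the median gene (0.24) in 10 of 10 genes. It was 1.78 in Lum, 1.21 in Fn1, 1.05 in Dcn and 1.03 in Thy1, against 0.31 in Pdgfrb and 0.27 in Rgs5. The SD of Lum exceeded that of 98.8% of all genes tested, but that of Pdgfrb only 61.4% and that of Rgs5 55.4%. The genes compared were not matched for level. The ratio of the highest to the lowest library was 33.1 for Lum and 8.80 for Fn1, and 1.68 for Pdgfrb and 1.73 for Rgs5. Each of these 4 fibroblast genes varied more than Pdgfrb or Rgs5. The other genes lay between, with an SD of 0.78 in Fbn1 and of 0.68, 0.61 and 0.51 in the mural genes Cspg4, Tagln and Acta2.

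Decorin and lumican, encoded by Dcn and Lum, are small leucine-rich proteoglycans that bind collagen fibrils, and their genes are neighbours on chromosome 10. Dcn had values of 983, 639 and 142 in knockout replicates 1, 2 and 3, against 235, 450 and 228 in wild type replicates 1, 2 and 3. Replicates 1 and 2 of knockout exceeded all wild type libraries, and knockout replicate 3 was below them all. Dcn had a log2 fold change of 0.63 (SE 0.70, limma adjusted p = 0.993), and a two-sided exact permutation test of Dcn alone gave p = 0.6, where 0.1 is the smallest that 3 libraries against 3 allow. Without knockout replicate 1 the log2 fold change was 0.06, and without knockout replicate 3 it was 1.45. Lum had values of 51.5, 78.7 and 17.9 in knockout replicates, against 4.01, 133 and 92.3 in wild type replicates. Wild type held both the lowest and the highest library. The lowest rested on 4 reads (exact 95% Poisson interval 1.09 to 10.2, counting error only) and the highest on 137 reads (115 to 162). The log2 fold change of Lum was 0.11 (SE 1.26, limma adjusted p = 0.996; exact permutation p = 1), and it was −1.38 without wild type replicate 1 and 0.99 without wild type replicate 2.

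These neighbouring genes did not keep a fixed proportion. The ratio of Dcn to Lum values was 19.1, 8.12 and 7.89 in knockout replicates 1, 2 and 3, against 58.5, 3.39 and 2.47 in wild type replicates 1, 2 and 3. It differed 23.7-fold between the extreme libraries. The ratio of Dcn to Fbn1 differed 2.27-fold, that of Dcn to Fn1 8.87-fold and that of Lum to Fbn1 14.1-fold. A wide range was thus not particular to the neighbouring pair. The highest ratio of Dcn to Lum and the lowest of Lum to Fbn1 rest on the 4 Lum reads of wild type replicate 1. Without that library the ratio of Dcn to Lum ran from 2.47 to 19.1. The level of the acinar list was highest and lowest in the same libraries as Dcn, knockout replicates 1 and 3. Its mean log2 value was 16.3, 15.2 and 11.8 in knockout replicates and 14.5, 12.4 and 13.9 in wild type replicates. Within wild type the order differed, as replicate 2 had the highest Dcn value and the lowest acinar level. With that level as a covariate the log2 fold change of Dcn was 0.27 (limma adjusted p = 0.998). The part that exocrine tissue had in the Dcn values was not otherwise tested.

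Fibronectin and fibrillin 1, encoded by Fn1 and Fbn1, are large matrix glycoproteins, the one a ligand of integrins and the other the backbone of microfibrils. Fn1 had values of 558, 486 and 104 in knockout replicates, against 156, 203 and 912 in wild type replicates. A single wild type library was the highest, and the lowest was in knockout. Fn1 had a log2 fold change of −0.01 (SE 0.85, limma adjusted p = 0.999; exact permutation p = 1). Without wild type replicate 3 it was 0.77, and without wild type replicate 1 it was −0.50. Fbn1 had values of 217, 174 and 66.8 in knockout replicates, against 70.2, 225 and 114 in wild type replicates. The spread of Fbn1 was narrower than that of Fn1, and each genotype held both a low and a high library. For Fbn1 the log2 fold change was 0.16 (SE 0.57, limma adjusted p = 0.994; exact permutation p = 1).

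Thy1 encodes a surface glycoprotein of fibroblasts that T cells and neurons also carry. Its values were 125, 74.9 and 42.9 in knockout replicates, against 275, 49.4 and 49.2 in wild type replicates. Wild type replicate 1 stood alone at the top, and the other 2 wild type libraries lay within the knockout range. Thy1 had a log2 fold change of −0.24 (SE 0.74, limma adjusted p = 0.993; exact permutation p = 0.8), and 0.57 without wild type replicate 1. By mean log2 value the lymphocyte list was highest in the same library, although its summed value was highest in knockout replicate 1. The mean log2 value was 9.71, 8.60 and 7.07 in knockout replicates and 10.1, 4.36 and 4.74 in wild type replicates. Cd3g, a T cell receptor subunit named after its values were seen, had values of 66.3, 44.0 and 12.0 in knockout replicates against 78.2, 4.84 and 1.76 in wild type replicates. With the lymphocyte level as covariate the log2 fold change of Thy1 was −1.20 (limma adjusted p = 0.874). Which cells gave the Thy1 reads was not tested.

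**Figure D3:**
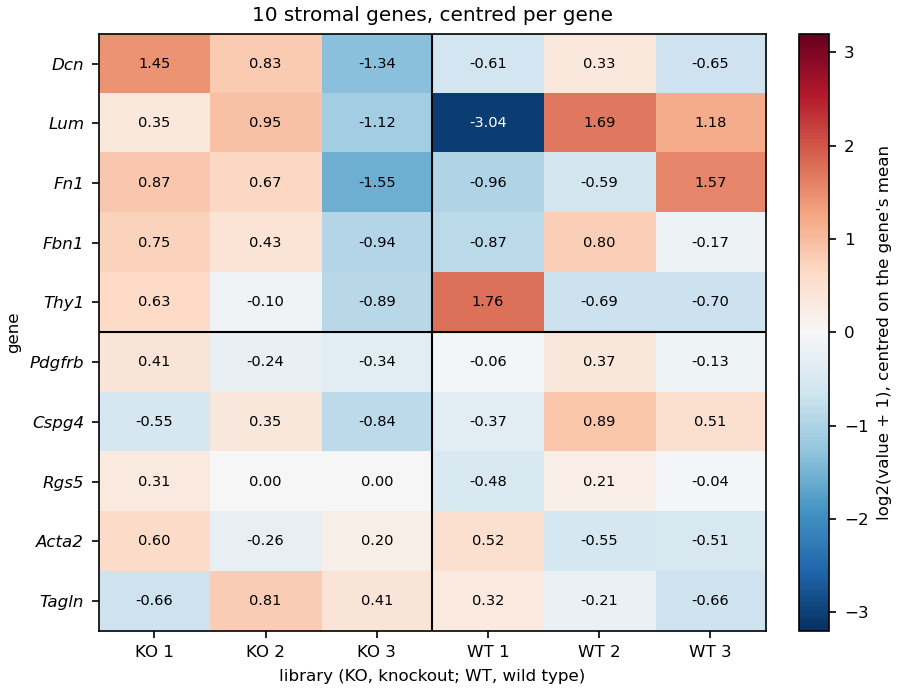
Log2(value + 1) of each gene (rows) in each library (columns), centred on the mean of the gene over the 6 libraries. The fibroblast genes in the upper block range from deep blue for Lum in wild type replicate 1 to deep red for Thy1 in the same library, while Pdgfrb and Rgs5 stay pale.

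Among the mural genes, the receptor and the proteoglycan of pericytes come first. Pdgfrb encodes the receptor that binds PDGF-B, and had values of 315, 201 and 187 in knockout replicates, against 228, 307 and 216 in wild type replicates. One library of each genotype was high, at 315 and 307, and the other 4 lay between 187 and 228. Pdgfrb had a log2 fold change of −0.11 (SE 0.25, limma adjusted p = 0.993; exact permutation p = 0.6), with a 95% interval from −0.71 to 0.48. Cspg4 encodes NG2, a proteoglycan of the pericyte surface, and had values of 63.8, 120 and 51.8 in knockout replicates, against 72.2, 174 and 134 in wild type replicates. Wild type replicates 2 and 3 were the highest and knockout replicate 3 the lowest, but knockout replicate 2 lay above wild type replicate 1. Cspg4 had a log2 fold change of −0.69 (SE 0.44, limma adjusted p = 0.993; exact permutation p = 0.2), the lowest exact p of the 10 genes. Cspg4 was lower in knockout in all 6 fits that left out 1 library, from −1.04 to −0.41. The sign also held in all 6 for Dcn, Rgs5, Acta2 and Tagln, so this was not particular to Cspg4. The ratio of Pdgfrb to Cspg4 values was 4.94, 1.68 and 3.62 in knockout replicates, against 3.15, 1.76 and 1.62 in wild type replicates.

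Rgs5 encodes a regulator of G protein signalling and is a standard pericyte marker. Its values were 2319, 1872 and 1863 in knockout replicates, against 1339, 2159 and 1817 in wild type replicates. All knockout libraries lay above wild type replicates 1 and 3, and wild type replicate 2 lay above knockout replicates 2 and 3. The log2 fold change was 0.21 (SE 0.19, limma adjusted p = 0.993; exact permutation p = 0.4), and 0.02 without wild type replicate 1. Rgs5 had the smallest SE and the narrowest 95% interval of the 10 genes, from −0.24 to 0.65.

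Acta2 and Tagln encode smooth muscle alpha actin and transgelin, which binds actin filaments, and both mark contractile cells. Acta2 had values of 63.8, 34.7 and 47.8 in knockout replicates, against 60.1, 28.1 and 29.0 in wild type replicates. Knockout replicates 1 and 3 and wild type replicate 1 were high, and the other 3 libraries lay between 28.1 and 34.7. Acta2 had a log2 fold change of 0.36 (SE 0.41, limma adjusted p = 0.993; exact permutation p = 0.5), and leaving out knockout replicate 1 gave 0.15, while leaving out wild type replicate 1 gave 0.71. Tagln had values of 6.13, 18.7 and 14.0 in knockout replicates, against 13.0, 8.71 and 6.15 in wild type replicates. These rest on 5 to 20 reads per library, and for knockout replicates 1 and 2 the exact 95% Poisson intervals were 1.62 to 11.7 and 12.2 to 30.9 reads. For Tagln the log2 fold change was 0.37 (SE 0.52, limma adjusted p = 0.993; exact permutation p = 0.5), and leaving out knockout replicate 2 gave 0.06, while leaving out knockout replicate 1 gave 0.79. Knockout replicate 1 was the highest library for Acta2 and the lowest for Tagln, both by a narrow margin. The nearest value was 60.1 for Acta2, in wild type replicate 1, and 6.15 for Tagln, in wild type replicate 3.

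Set per kilobase of exon in GENCODE M21, since the authors' annotation is not given in the sources used here, the genes spanned a wide range of levels. The mean normalized value per kilobase over the 6 libraries was 417 for Rgs5, 230 for Dcn, 54.7 for Thy1, 47.6 for Fn1 and 44.3 for Pdgfrb. It was 25.7 for Lum, 21.6 for Acta2, 12.6 for Cspg4, 12.0 for Fbn1 and 6.97 for Tagln. The ranges over the libraries overlapped for each neighbouring pair in that order, so by range only distant ones are set apart. Rgs5 ran from 295 to 510 per kilobase and Pdgfrb from 34.2 to 57.6. Within each library, however, Rgs5 lay above Dcn. Of the pericyte list, Notch3 had 27.0 per kilobase, Abcc9 14.4 and Kcnj8 10.8. Higd1b, another pericyte marker, had 3.21 per kilobase and lay below the filter. Rgs4, also on the pericyte list and the next gene to Rgs5 on chromosome 1, had 2465 per kilobase. Which cells gave the Rgs5 reads was not tested.

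**Figure D4:**
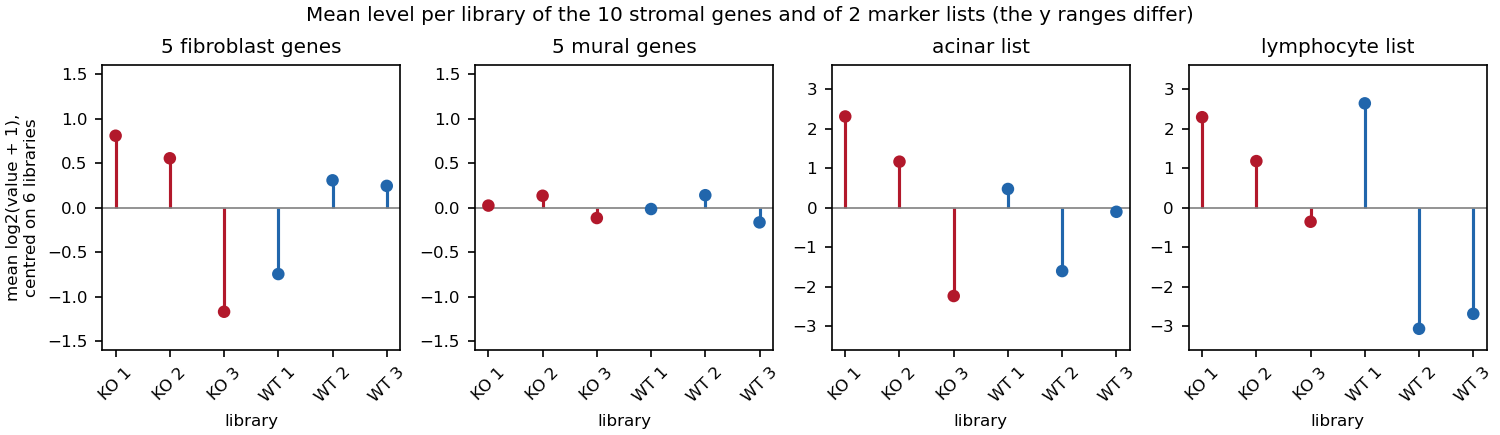
Mean log2(value + 1) per library (x axis) of the 5 fibroblast genes, the 5 mural genes, the acinar list and the lymphocyte list, each centred on the 6 libraries. Knockout is red and wild type blue, and the y range is wider for the acinar and lymphocyte lists. The fibroblast genes run from 0.81 in knockout replicate 1 to −1.17 in knockout replicate 3, and the mural genes stay between −0.17 and 0.14.

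Library by library, the fibroblast genes swung more widely than the mural genes, and only in wild type replicate 3 did their means lie on opposite sides of 0. The mean centred log2 value of the fibroblast genes was 0.81, 0.55 and −1.17 in knockout replicates 1, 2 and 3, against −0.75, 0.31 and 0.24 in wild type replicates 1, 2 and 3. That of the mural genes was 0.02, 0.13 and −0.12 in knockout replicates, against −0.02, 0.14 and −0.17 in wild type replicates. Averaging genes that vary in unlike ways narrows the range, so the small range of the mural mean does not show that each mural gene was steady. The mural minus fibroblast level was −0.05 ± 0.97 in knockout and 0.05 ± 0.60 in wild type libraries (SD, n = 3 each). Knockout replicate 3 was the lowest library for 6 of the 10 genes and knockout replicate 1 the highest for 4.

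The genes most like Dcn, Acta2 and Rgs5 were sought among 11110 genes outside the 10 with a mean value of at least 100, by the root mean square difference of centred log2 values over the 6 libraries. For Dcn these were Chst2, Nr5a2, Gata4, Itgb4 and C1s1, with differences from 0.16 to 0.28, while the nearest of the 10, Fbn1, was at 0.47. Nr5a2 and Gata4 encode transcription factors. For Acta2 they were Hspa8, Crem, Tll1, Irs2 and Gdf15, from 0.09 to 0.17, and Hspa8 encodes a constitutive heat shock protein. The nearest of the 10 to Acta2, Pdgfrb, was at 0.52, farther than a flat profile (0.47). For Rgs5 they were Tbc1d2b, Tnk1, Il15ra, Zfp92 and Ednrb, from 0.07 to 0.08, and Ednrb, an endothelin receptor gene, was also on the pericyte list. The nearest of the 10 to Rgs5, again Pdgfrb, was at 0.255, farther than a flat profile (0.249). With 6 libraries and this many genes close profiles are easy to find, and none of these likenesses was tested.

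Pericyte genes beyond the 10 stood more often on the higher side in knockout. Of 20 tested, 15 had a higher and 5 a lower mean, with a median log2 fold change of 0.28, where 49.4% of all genes were on the higher side. By the mean log2 value of the list the groups overlapped. Wild type replicate 2, at 7.31, lay above knockout replicates 2 and 3, at 7.28 and 7.17. Wild type replicates 1 and 3 lay below all knockout libraries. Knockout replicate 1 was the highest library for 9 of the 20, and wild type replicate 3 the lowest for 7. Limma called 0 of the 20, and 2 had an unadjusted p under 0.05, both higher, beside 1.72% of all genes in that direction. These were Abcc9, the sulfonylurea receptor subunit of the vascular potassium channel, and Notch3, the Notch receptor of mural cells. Abcc9 had values of 173, 152 and 137 in knockout replicates, against 81.2, 104 and 77.4 in wild type replicates. All 3 knockout libraries lay above all 3 wild type ones, as groups without overlap did in 9.08% of all genes, and the log2 fold change was 0.81 (SE 0.21, limma adjusted p = 0.993; exact permutation p = 0.1, the smallest possible). Notch3 had values of 277, 229 and 258 in knockout replicates, against 172, 197 and 164 in wild type replicates, again without overlap. Notch3 had a log2 fold change of 0.52 (SE 0.16, limma adjusted p = 0.993; exact permutation p = 0.1). Neither passed in edgeR (adjusted p = 0.993 for both) or DESeq2 (adjusted p = 0.466 for Abcc9 and 0.827 for Notch3).

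Kcnj8, which encodes the pore subunit that pairs with Abcc9, had values of 57.7, 27.2 and 19.9 in knockout replicates, against 26.1, 13.6 and 20.2 in wild type replicates, and the groups overlapped. Its log2 fold change was 0.68 (SE 0.48), and 0.26 without knockout replicate 1. Ednra, an endothelin receptor gene, had 0.87 (SE 0.40), and 0.47 without knockout replicate 1. The endothelial list, cells that pericytes cover, had 15 of 16 genes on the higher side with a median of 0.24. Its mean log2 value was 9.39, 9.27 and 9.25 in knockout replicates, against 8.90, 9.20 and 8.91 in wild type replicates. Not all pericyte markers were on that side. In knockout 5 of the 20 tested on the pericyte list had a lower mean, as did Pdgfrb (−0.11) and Cspg4 (−0.69). The part of vessel content in the Abcc9 and Notch3 values was not tested.

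**Figure D5:**
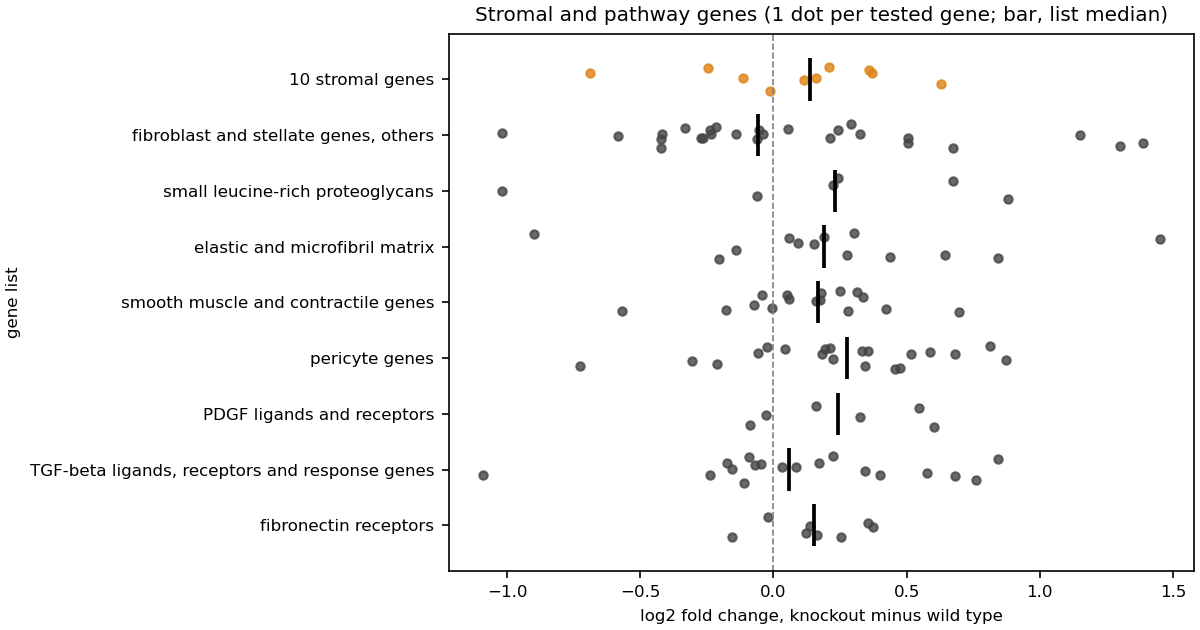
Log2 fold change, knockout minus wild type (x axis), of the 10 genes and of the genes of 8 stromal and pathway lists (rows), 1 dot per tested gene, with the list median as a bar. Medians lie between −0.06 for the other fibroblast genes and 0.28 for the pericyte genes.

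Contractile genes did not separate the genotypes as a list. Of 16 tested, 11 had a higher and 5 a lower mean in knockout, with a median log2 fold change of 0.17, and limma called 0 (0 at an unadjusted p under 0.05). Myh11, smooth muscle myosin, averaged 188 ± 28.5 in knockout and 152 ± 47.5 in wild type libraries (SD, n = 3 each), a log2 fold change of 0.34 (SE 0.26). Des, the intermediate filament of muscle and stellate cells, had 0.42 (SE 0.28). Cnn1, calponin, lay below the filter with a mean of 7.69 ± 3.92 in knockout and 4.82 ± 1.89 in wild type libraries (SD, n = 3 each). The 3 smallest p of the list belonged to Tpm2, a tropomyosin (−0.57, SE 0.30), Mustn1 (0.70, SE 0.42) and Tagln2, a widely expressed relative of Tagln (−0.18, SE 0.11). The groups did not overlap in Tpm2, as in 9.08% of all genes.

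Fibroblast genes beyond the 10 were counted in the same way. Of 26 tested, 11 had a higher and 15 a lower mean in knockout, with a median of −0.06. Wild type replicate 2 was the highest library for 11 of the 26 and wild type replicate 1 the lowest for 11. Vim, the mesenchymal filament vimentin, had 0.06 (SE 0.51), and Pdgfra, the receptor of fibroblasts, 0.32 (SE 0.43). Limma called 0, and 1 of 26 had an unadjusted p under 0.05, a share near the 3.08% of all genes. It was Gsn, the actin-severing protein gelsolin. Gsn averaged 3664 ± 187 in knockout and 4896 ± 237 in wild type libraries (SD, n = 3 each), with no overlap, as in 9.08% of all genes. Its log2 fold change was −0.42 (SE 0.09, limma adjusted p = 0.993). DESeq2 gave an adjusted p of 0.0348, but edgeR on the same reads gave an adjusted p of 0.993. Dpt, dermatopontin, had 1.39 (SE 0.81) and Clec3b, tetranectin, 1.30 (SE 0.62). Among 6 proteoglycan relatives of Dcn and Lum, 4 had a higher and 2 a lower mean, with a median of 0.23. Wild type replicate 1, the library with the least Lum, was also the lowest for 4 of these 6. Bgn, Fmod, Ogn and Prelp were on both this list and the fibroblast list, so the counts of the lists are not independent. Podn had 0.88 (SE 0.90), Ogn 0.68 (SE 0.81), Fmod −1.02 (SE 0.87) and Bgn, biglycan, −0.06 (SE 0.47).

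Matrix partners of Fbn1 and Fn1 were counted next. Of 13 elastic fibre and microfibril genes, 10 had a higher and 3 a lower mean in knockout, with a median of 0.19 and 0 at an unadjusted p under 0.05. Ltbp1, which stores latent TGF-beta on microfibrils, had values of 222, 184 and 189 in knockout replicates, against 139, 156 and 60.7 in wild type replicates. Those groups did not overlap, as in 2 of the 13 genes and in 9.08% of all genes. The log2 fold change of Ltbp1 was 0.84 (SE 0.37, limma adjusted p = 0.993), and 0.42 without wild type replicate 3. Efemp1, a fibulin, had 1.45 (SE 0.65) and Ltbp3 0.28 (SE 0.13). Of 8 fibronectin receptor genes, 6 had a higher and 2 a lower mean, with a median of 0.15 and 0 at an unadjusted p under 0.05. The integrin genes Itgav and Itga4 had 0.12 (SE 0.12) and 0.36 (SE 0.40), and Cd44, the hyaluronan receptor, 0.16 (SE 0.19).

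Growth factors that act on stromal cells were measured in the same fit. Of 6 PDGF genes, 4 had a higher and 2 a lower mean in knockout, with a median of 0.24 and 0 at an unadjusted p under 0.05. Pdgfb, the ligand of the Pdgfrb receptor, averaged 608 ± 75.8 in knockout and 565 ± 208 in wild type libraries (SD, n = 3 each), a log2 fold change of 0.16 (SE 0.25). Pdgfc and Pdgfd had 0.60 (SE 0.45) and 0.55 (SE 0.38). Of 18 TGF-beta genes, 10 had a higher and 8 a lower mean, with a median of 0.06, and limma called 0. Tgfb1, the main fibrogenic ligand, had −0.17 (SE 0.29). Tgfb2 had values of 163, 124 and 137 in knockout replicates, against 77.2, 107 and 67.7 in wild type replicates, with no overlap. Its log2 fold change was 0.76 (SE 0.25, limma adjusted p = 0.993), and it alone of the 18 had an unadjusted p under 0.05, beside 3.08% of all genes, with 9.08% of all genes free of overlap. Ccn2, a TGF-beta response gene of fibrotic tissue, had −1.09 (SE 0.58), with 30.7 in knockout replicate 1 as its lowest value, and −0.41 without that library.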

How the data were processed

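RNA was sequenced from 6 islet libraries, and the aligner was HISAT2, per the submitters' processing notes. No version, counter, build or strandedness is stated in the labels, so reads of antisense, overlapping or near-identical genes may be mixed. As deposited, the signal values are gene read counts that the authors divided by 1 size factor per library, as the values show: 100% were whole multiples of 1 step within 0.01 reads, in each library. The table holds 18437 genes, with 0 genes at zero in any library, and 16042 that reached 10 in 3 or more libraries were tested. Limma 3.58.1 (R 4.3.3) fitted log2(value + 1) for the knockout minus wild type difference, letting the prior variance follow the mean level, and p-values were adjusted by Benjamini-Hochberg over all genes tested. Fold changes are on that scale and understate the change of low genes. Alternatives were DESeq2 1.42.0 and edgeR 4.0.16 on those reads, other scalings, filters, pseudocounts, covariates and leaving out each library. The scripts were tested on simulated counts.

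The 10 genes, the gene lists and the rule for genes named (the 3 smallest p of each stromal list, plus fixed names) were chosen with earlier results of these data known. No p is given over the 10 genes together. Symbols missing from the table, such as Lrat, Actg2 and Myocd, were not analysed here. Within each genotype no library was a copy of another: chi-square per degree of freedom between replicates was 57.0 to 327. Libraries of unlike genotype were not compared in this way. Exact Poisson intervals of reads cover counting error only.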

Additional observations from a re-analysis of the deposited data

How the results depend on the processing

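Limma called 0 genes with all libraries, and 0 in each fit without 1 library (0 to 0), while DESeq2 called 13. Of the 10 genes 0 were called in each of the 19 alternatives, although 8 of them were tested with the filter of at least 50 and DESeq2 gave no adjusted p for 3. Their median log2 fold change of 0.14 spanned −0.10 to 0.31 when each library was left out in turn, and the mural minus fibroblast difference of −0.10 ran from −0.65 to 0.26. Signs turned for the following values, and Lum also moved up, to 1.37 with the lymphocyte covariate. Lum was −0.051 with a pseudocount of 5, −0.029 with array weights, −0.62 with edgeR and −0.62 with DESeq2. Fn1 was 0.0035 with upper quartile scaling, 0.17 with array weights and 0.13 with the lymphocyte covariate. With array weights Thy1 was 0.082 and Pdgfb −0.013. With the lymphocyte covariate Acta2 was −0.015, Pdgfra −0.032, Itga4 −0.16, Vim −0.51, Bgn 0.18 and Ins1 0.018, and Vim was −0.27 with the acinar covariate. With single libraries left out Lum ran from −1.38 to 0.99, Fn1 from −0.50 to 0.77, Fbn1 from −0.23 to 0.67, Thy1 from −0.65 to 0.57 and Pdgfrb from −0.35 to 0.041. Vim ran from −0.23 to 0.59, Bgn from −0.46 to 0.35, Ogn from −0.080 to 1.33, Podn from −0.11 to 1.66, Pdgfb from −0.018 to 0.44, Tgfb1 from −0.40 to 0.11 and Ins1 from −0.26 to 0.036. The cause was not tested. Same-numbered libraries deviated together for numbers 1 and 3 (correlations 0.43 and 0.37) but not 2 (0.0037). Knockout replicate 2 correlated best with wild type replicate 1, at only 0.03. These correlations cannot decide whether the numbers pair the libraries, because deviations from the mean of 3 libraries are not independent. With the replicate block 0 genes were called, and 864 had an unadjusted p under 0.05, against 494 without it. Counting error weighs most on Tagln (5 to 20 reads a library) and on Lum in wild type replicate 1 (4 reads).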

Other observations

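Markers of other cells around the vessels and ducts were measured in the same fit. Of 12 macrophage genes 9 had a higher and 3 a lower mean log2 value in knockout, with a median log2 fold change of 0.34, and the mean log2 value ran from 6.70 to 7.84 in knockout and from 6.93 to 7.26 in wild type libraries. Of 8 Schwann cell and nerve genes 3 were higher and 5 lower, with a median of −0.14. Of 12 duct genes 9 were higher and 3 lower, with a median of 0.24. Cxcl13, a chemokine of lymph node stroma, had values of 413, 152 and 125 in knockout replicates, against 284, 10.7 and 25.5 in wild type replicates. All 7 tested genes of that list but Madcam1 had a higher mean in knockout, with a median of 0.77. Of mesothelial genes 2 were tested, Msln and Gpm6a, both higher in mean (1.09, SE 0.50, and 0.46, SE 0.49). Fabp4, a fatty acid carrier of adipocytes and capillary endothelium, had values of 222, 309 and 221 in knockout replicates, against 127, 140 and 135 in wild type replicates (limma adjusted p = 0.993). The adipocyte genes Adipoq and Plin1 were not analysed here. Of 20 acinar genes 19 were higher and 1 lower in mean (median 0.83), of 9 lymphocyte genes 9 were higher (median 1.65), and of 14 beta cell genes 3 were higher and 11 lower (median −0.12). Limma called 0 genes of the lists in this paragraph. At an unadjusted p under 0.05 it found Fabp4 and, among the Schwann cell and nerve genes, 1 higher and 1 lower, beside 3.08% of all genes. Genes are named here after their values were seen.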
